A study of Mus musculus with 12 samples.

Results

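Untreated airway organoids were described here at baseline, from the 6 libraries of the 12 whose treatment label names a control without treatment. They were chosen by that label alone, and no measured value entered the choice. The series compared organoids in which 10 neighboring cells each had been removed with a femtosecond laser with organoids in which no cell was ablated. The airway epithelial cells came from proximal airways of adult wild-type C57BL/6J mice. The methods name both sexes for the mice, without the sex of the donors of these dishes. All 12 libraries, controls included, carry a lentiviral vector that codes for a Histone2A-mCherry fusion protein under a p63 promoter, which the methods give as amplified from human DNA. Organoids grew in Cultrex basement membrane extract under medium with L-WRN supernatant, epidermal growth factor and the inhibitor Y-27632. For the experiment 45 organoids per dish were moved to unsupplemented FluoroBrite DMEM, and the control dishes were harvested at the same 4.5 h as the ablated ones. The control dishes carry the numbers 1, 3, 4, 5, 6 and 7, with culture days 14, 20, 14, 15, 18 and 19 in their titles, and passages from 14 to 16 after the second. The titles of controls 4, 6 and 7 hold the word ablation although their treatment label says control, and the treatment label was followed. No source says that the dishes came from separate animals, so the spread given below is that between dishes and may be technical.

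The airway epithelium is renewed by basal cells, which sit on the basement membrane, make keratins 5 and 14 and carry the transcription factor p63. Basal cells give rise to luminal cells rich in keratins 8, 18 and 19, among them the secretory club and goblet cells and the multiciliated cells. Medium with Wnt3a, R-spondin and noggin, which L-WRN cells secrete, and with epidermal growth factor is widely used to keep epithelial progenitors dividing.

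Levels are given per length, as normalized counts divided by the summed exon length of the gene and scaled so that each library sums to 1000000. All levels below are on this scale. In the 5 control libraries whose whole reads could be recovered, 23631212 to 29775699 reads had been assigned to genes. Normalized counts summed to between 27297950 and 28504390 per control library, and 20194 to 20465 genes had at least 1 read. Of 55401 genes listed, 12363 reached a level of 1 in all 6 dishes, of which 11015 were protein coding. A level of 100 was reached by 1512 genes in all dishes, a level of 1000 by 111 and a level of 10000 by 3. The 10 highest genes held 10.2% of the summed level, and the 100 highest held 30.7%. Across the 10707 genes with a mean of at least 100 normalized counts, log2 values of any pair of dishes correlated with r between 0.981 and 0.994 over the 15 pairs, as a description across genes, which are not independent. Control 3 stood apart from the others: the median absolute log2 difference from another dish was 0.149 to 0.190 for control 3, and 0.0901 to 0.143 among the other 5.

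The markers of basal airway epithelium were all found. Krt14, the acidic basal keratin (ENSMUSG00000045545.8, GRCm38.p6, chromosome 11 from 100203162 to 100207548), was the highest gene of all, with a lowest level of 14127, a median of 15649 and a highest level of 17014 (15642 ± 1092, SD, n = 6). Krt5, its basic partner (ENSMUSG00000061527.7, chromosome 15 from 101707070 to 101712898), ranked 2 with 12616, 14165 and 16721 (14574 ± 1617). No dish fell below 12616 for either keratin. Trp63, which encodes the basal cell transcription factor p63 (chromosome 16 from 25683763 to 25892102), was measured at 92.1, 106 and 121 (104 ± 10.7) and ranked 1634. Sox2, a transcription factor of the conducting airway (chromosome 3 from 34650405 to 34652461), was measured at 187, 232 and 249 (224 ± 23.4) and ranked 674. Krt8, a luminal keratin (chromosome 15 from 101996698 to 102004482), had 1328, 1428 and 1774 (1488 ± 169) and ranked 72. Keratins of the basal and of the luminal type were thus found in the same libraries, and in bulk RNA a larger number of cells of a type cannot be told apart from more RNA per cell. Ranks depend on the division by length: without it Eef1a1 came first, Krt5 stood at 2, Krt14 at 3, Krt8 at 92, Trp63 at 621 and Sox2 at 1508.

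**Figure D1:**
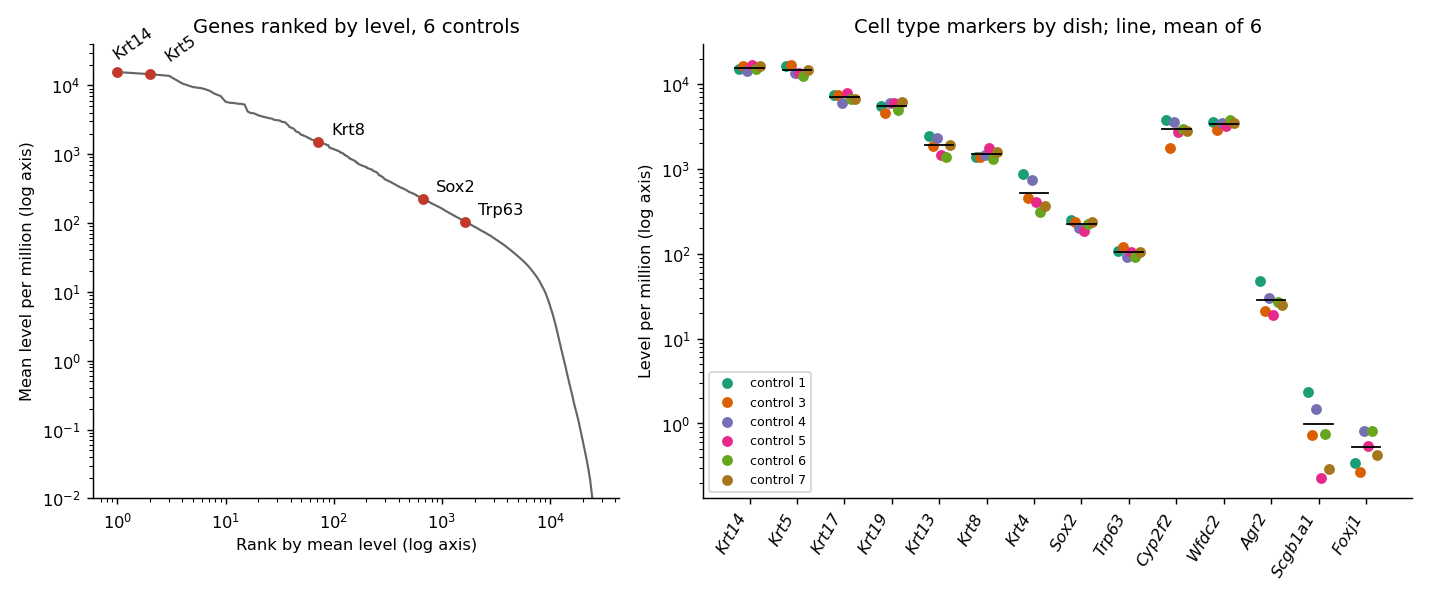
Left, mean level per length of each gene over the 6 control libraries against its rank, both on log axes, with the 5 marker genes in red. Right, level (log axis) of markers in each dish, with the line at the mean of 6; Krt14 and Krt5 lie at 12616 to 17014 in all dishes, and the multiciliated factor Foxj1 lies below 1 in all.

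Besides the 2 leading keratins, the 25 genes of highest mean level outside the mitochondrial genome fell into a few kinds. Krt17, a keratin of basal and activated epithelium, had a level of 7019 ± 687 (SD, n = 6), the luminal Krt19 5550 ± 621, and Krt6a, a keratin of stressed and stratified epithelium, 4187 ± 314. Eef1a1 and Eef2, which carry translation elongation, stood at 13786 ± 698 and 5588 ± 937. Ribosomal proteins made up much of the remainder, and 79 cytosolic ribosomal protein genes together held 12.3% of the summed level (11.4% to 13.3% by dish), against 5.41% for 47 keratins (4.91% to 5.67%).

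A group of enzymes that handle foreign or oxidized compounds was also among the 25. Gsto1, a glutathione transferase of the omega class, stood at 8477 ± 1070 and ranked above Krt17. Gsta4, a glutathione transferase for lipid aldehydes, had 3601 ± 151, and Cbr2, a carbonyl reductase abundant in mouse lung, had 5801 ± 933. Close to them came Cyp2f2, the cytochrome P450 typical of club cells, at 2939 ± 721 and rank 35. It was lowest in control 3 with 1758, and between 2706 and 3807 in the other dishes. Anxa1, a phospholipid-binding annexin, had 5391 ± 345, the chaperone Hsp90ab1 3679 ± 205 and the secreted protease inhibitor-like Wfdc2 3419 ± 333. The water channels Aqp3 and Aqp5 ranked 31 and 34, with 3107 ± 352 and 2944 ± 140. Gm10736, a pseudogene with a length of 78 bases, ranked 29 with 3146 but 3323 without the division by length, and its reads could belong to a near-identical copy.

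Mitochondrially encoded genes held 4.06% of the summed level (3.58% to 4.64%). mt-Co1, a subunit of cytochrome oxidase, stood at 10635 ± 1449 (SD, n = 6), mt-Cytb at 9112 ± 1212 and mt-Nd1 at 7511 ± 928. The mitochondrial share was 3.58%, 3.62% and 3.76% in controls 1, 3 and 5 and 4.19%, 4.64% and 4.58% in controls 4, 6 and 7. mt-Nd2, mt-Nd5 and mt-Nd4 stood at 3980, 2408 and 1788. Other mitochondrial protein genes were measured at far lower levels: mt-Co2 at 5.32, mt-Co3 at 5.12, mt-Atp6 at 4.81, mt-Nd3 at 17.5 and mt-Nd4l at 0.703. These 5 genes share between 97.8% and 99.9% of their windows of 75 bases, the read length, with unprocessed pseudogenes of the nuclear genome, by the reference transcripts of GENCODE. Of the remaining 8 mitochondrial protein genes none shares more than 61.5%, and they ranged from 1.77 (mt-Atp8, with no shared window) to 10635. How the counting treated reads with several matches is not given in the sources used here, and the part of shared sequence in these low levels was not tested. The mitochondrial share is uncertain to that extent.

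All 16 genes of the basal cell list reached a level of 1 in every dish, and their summed level lay between 39258 and 45524. The hemidesmosome gene Col17a1 stood at 464 ± 38.5 (SD, n = 6), the integrin chain Itgb4 at 339 ± 23.3 and Snai2, a zinc-finger factor of basal cells, at 245 ± 26.1. Ngfr, the nerve growth factor receptor used to sort basal cells, had 92.3 ± 11.6, and Pdpn, a basal surface protein, 70.4 ± 3.44. Krt15, a keratin of basal subsets, differed most between dishes, with 811, 684, 548, 449, 237 and 397 in controls 1, 3, 4, 5, 6 and 7. It was high in control 1 and low in control 6.

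All 10 genes of the luminal epithelium list also passed, with sums of 10222 to 13001. The tight junction gene Cldn4 was measured between 491 and 877, highest in control 5. Epcam, an epithelial adhesion molecule, stood at 666 ± 54.5, and Cdh1, which encodes E-cadherin, at 403 ± 32.0. The membrane mucin gene Muc1 was the most uneven of the list, with 15.6 and 19.2 in controls 1 and 3 and 38.0 to 56.8 in the other 4 dishes.

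Genes of the hillock and squamous list, which covers the stratified, keratin 13 and keratin 4 cells of the airway, were at 1 or above for 13 of 14, with sums of 8336 to 10017. Krt13 had 2472, 1867, 2352, 1471, 1385 and 1918 in controls 1, 3, 4, 5, 6 and 7, and Krt4 had 877, 455, 742, 408, 308 and 363. Both were highest in controls 1 and 4 and lowest in control 6. Sprr1a, a precursor of the cornified envelope, stood at 1570 ± 194, and Krt16, a partner of Krt6a in stratified epithelium, at 281 to 756 with its highest value in control 5. Lower members of the list were Sprr3 at 53.4, Ivl at 38.7, Sprr1b at 16.4 and Krt10 at 12.4. The crosslinking enzyme Tgm1 stood at 9.35, Cnfn at 8.81, Sbsn at 8.34 and Krt1 at 0.125.

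Of the airway transcription factors, 9 of 10 passed. Elf3 and Ehf, epithelial ETS factors, stood at 366 ± 62.1 and 205 ± 32.2, and Klf5, a Krüppel-like factor, at 115 ± 5.21. Nkx2-1, the factor that marks lung endoderm, was measured at 51.8, 78.8 and 111, lowest in control 3 and highest in control 6. Foxa1, a pioneer factor of endoderm, had 86.9 ± 16.6, whereas its relative Foxa2 had 0.164 ± 0.0719.

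Secretory cell genes were split. Of the club and secretory cell list, 10 of 15 genes passed in all dishes, with sums from 11619 in control 3 to 16874 in control 1. The list holds Cbr2, Wfdc2 and Cyp2f2, and further high members were Gabrp, a GABA receptor subunit, at 1037 ± 142, Ltf, which encodes lactotransferrin, at 594 to 1402, Lypd2 at 287 ± 61.4 and Reg3g, an antibacterial lectin, at 144 to 360. Scgb1a1, the club cell secretoglobin, had a lowest level of 0.229, a median of 0.744 and a highest level of 2.35. The secretoglobins Scgb3a1 and Scgb3a2 stood at 18.2 ± 6.36 and 1.91 ± 0.570. Bpifa1, a secreted airway defence protein, had 0.285, the gel-forming mucin Muc5b 0.118, and Bpifb1 no read in any dish, which allows a level of up to 0.10 by counting error alone. Cbr2, Wfdc2 and Cyp2f2 were thus among the highest genes of the libraries, whereas Scgb1a1, Muc5b, Bpifa1 and Bpifb1 were at or near 0.

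Markers of goblet cells were low. Of 8 genes 3 passed: Agr2, a disulfide isomerase needed for mucin folding, was measured at 19.3, 26.0 and 48.4, Clca1 at 2.22 and Fcgbp at 1.45. The mucin Muc5ac had a mean level of 0.0167 and Spdef, the goblet cell transcription factor, 0.102. The multiciliated list had 4 of 17 genes at 1 or above, which were Rfx2 at 6.71, Myb at 2.84, Rfx3 at 2.34 and Cfap126 at 1.98. Foxj1, the factor that drives motile cilia, stood at 0.266 to 0.820 and the axonemal dynein gene Dnaic1 at 0.139. No read was found for Deup1, Gmnc, Tekt1 or Sntn.

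Rare and neighbouring cell types were checked with lists as well. Of the tuft cell list 1 of 9 genes passed, the actin-binding Avil at 8.09, while the ion channel gene Trpm5 stood at 0.0681. Of the ionocyte list 1 of 5 passed, the proton pump subunit Atp6v1c2 at 2.21, with 0.155 for the factor Foxi1 and 0.696 for the chloride channel Cftr. None of 8 neuroendocrine genes passed. The alveolar type I list had 3 of 8 genes, but its sum came from Aqp5 and from Hopx, a homeodomain protein, at 1244 to 1534. Ager, the defining alveolar type I marker, had 0.896 ± 0.335. Of the alveolar type II list 3 of 10 passed, namely the ETS factor Etv5 at 22.0, the lipid transporter Abca3 at 14.0 and the collectin Sftpd at 8.63. The defining surfactant genes Sftpc and Sftpb had no read, which allows levels of up to 0.351 and 0.184.

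Marker genes of fibroblasts, smooth muscle, endothelium and erythroid cells were at or near the limit of detection. None of 11 fibroblast, 5 smooth muscle, 7 endothelial or 5 erythroid genes reached a level of 1 in all dishes, and the fibroblast genes summed to 0.307 to 0.786. Col1a1 had 0.147 and Pecam1 0.138. Of 9 immune genes Cd68, a lysosomal protein, had 11.7 and the integrin Itgam 2.86, while the pan-leukocyte Ptprc had 0.0937 and Cd3e, Tyrobp and Adgre1 had no read.

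**Figure D2:**
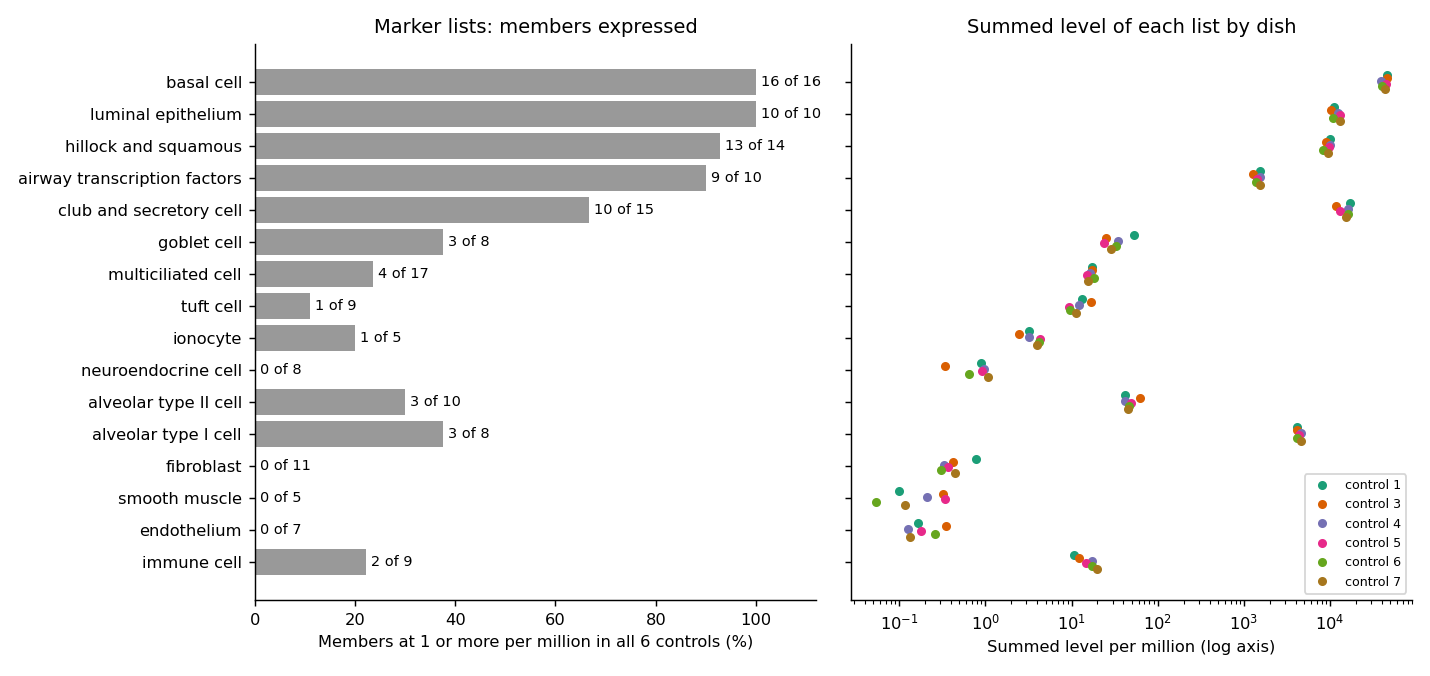
Left, percent of the genes of each cell type list at a level of 1 or more in all 6 control libraries, with the counts beside the bars. Right, summed level of each list (log axis), 1 point per dish; the basal list sums to 39258 to 45524 and the fibroblast list to 0.307 to 0.786.

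Division genes were expressed in every dish. All 15 S phase genes and all 14 genes of G2 and M phase passed in all dishes. The S phase sum was highest in control 3 with 1391 and lowest in control 7 with 956. Mcm3, a subunit of the replicative helicase, was measured at 73.9, 113, 67.2, 70.3, 77.2 and 62.6 in controls 1, 3, 4, 5, 6 and 7, and Uhrf1, which maintains DNA methylation, at 54.7, 94.6, 55.3, 53.9, 65.4 and 49.4. Control 3 stood above all others for both genes. The sum of G2 and M phase genes was ordered otherwise, with 1430 in control 1, 1625 in control 7 and 2498 in control 6. Mki67, which encodes the proliferation antigen Ki-67, had its lowest level of 128 in control 1 and its highest of 260 in control 6.

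Signalling genes were led by a few members. Of 10 Wnt receptor and feedback genes 7 passed, with Lgr4, an R-spondin receptor, at 52.7 to 105 and its relative Lgr6 at 19.4 ± 5.01. The list sum was 126 in control 3 and 171 to 189 in the others, and Lgr4 too was lowest in control 3. Axin2, a feedback target of the pathway, had 1.99 ± 0.566, and the stem cell receptor Lgr5 had 0.0323.

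The ErbB list, with 9 of 11 genes passing, was uneven in the ligands. Areg, which encodes amphiregulin, was measured at 85.3, 120, 120, 265, 83.6 and 113 in controls 1, 3, 4, 5, 6 and 7. Ereg, which encodes epiregulin, had 36.1, 47.2, 55.2, 93.2, 32.7 and 49.2, and Hbegf 16.0, 27.3, 26.9, 40.5, 20.6 and 26.8. Control 5 was highest for all 3 ligands. The receptors varied less, with Erbb3 at 102 ± 16.4, Erbb2 at 74.4 ± 7.46 and Egfr at 20.2 ± 1.53, and Erbb4 was at 0.0016.

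Notch genes had the evenest sums, from 732 to 806, with 9 of 12 passing. Hes1, a target of the pathway, stood at 229 ± 8.71, Nrarp, a feedback inhibitor, at 84.2 to 129 and the receptor Notch1 at 47.4 ± 6.03. The ligand Jag1 was measured at 115, 89.4, 178, 212, 162 and 173 in controls 1, 3, 4, 5, 6 and 7, so that it was lower in controls 1 and 3 than in any other dish. Of 7 BMP genes 6 passed, with the inhibitors of differentiation Id1 and Id2 at 41.7 ± 6.60 and 38.5 ± 3.83.

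All 11 genes of basement membrane adhesion passed, with sums of 2131 to 2597, led by the integrin chain Itgb1 at 602 ± 42.0. Of 16 desmosome and junction genes 15 passed, with sums of 6824 to 8460. Perp, a p63 target of desmosomes, stood at 3067 ± 458, the plaque protein Dsp at 670 ± 53.7 and the cadherin Dsg3 at 647 ± 29.7. Among immediate early genes 9 of 10 passed, with sums of 833 to 1199. Junb had 330 ± 34.8. Egr1, a zinc-finger factor induced within minutes of stimulation, was measured at 19.7, 49.0, 15.2, 21.5, 12.2 and 14.6 in controls 1, 3, 4, 5, 6 and 7, and Fosl1, an AP-1 subunit, at 5.16, 19.6, 8.11, 23.3, 6.41 and 7.42. Egr1 was high in control 3 and Fosl1 in controls 3 and 5. Of the glycolysis and hypoxia list 12 of 13 genes passed, with sums of 5130 to 6004, led by the enzymes Pkm at 1511 ± 104 and Ldha at 1085 ± 103.

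**Figure D3:**
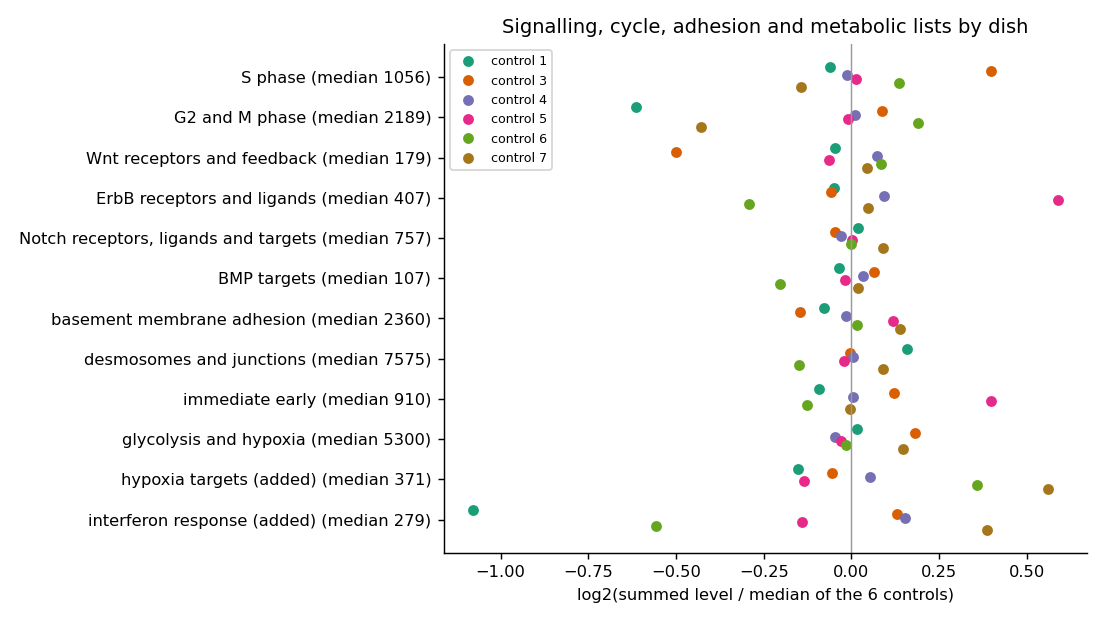
Log2 of the summed level of each list in each control library over the median of the 6, with that median in the row label. Control 3 lies lowest for the Wnt list with 126 and control 5 highest for the ErbB list with 612, and the lists marked as added were chosen after the values were seen.

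The spread between dishes was taken as the SD of log2(normalized count + 1) over the 6 control libraries, for the 10707 genes with a mean of at least 100 normalized counts. Its median was 0.128, where counting error alone would give 0.0415, and 5% to 95% of genes lay between 0.0505 and 0.355. An SD above 1 was found for 8 genes and one above 0.5 for 192. The median was 0.161 for genes with a mean of 100 to 1000 normalized counts, 0.106 from 1000 to 10000 and 0.121 above. Without control 3 the median SD was 0.108. The evenest gene was Sec11a, a signal peptidase subunit, with levels of 60.4 to 65.2 over the 6 dishes.

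**Figure D4:**
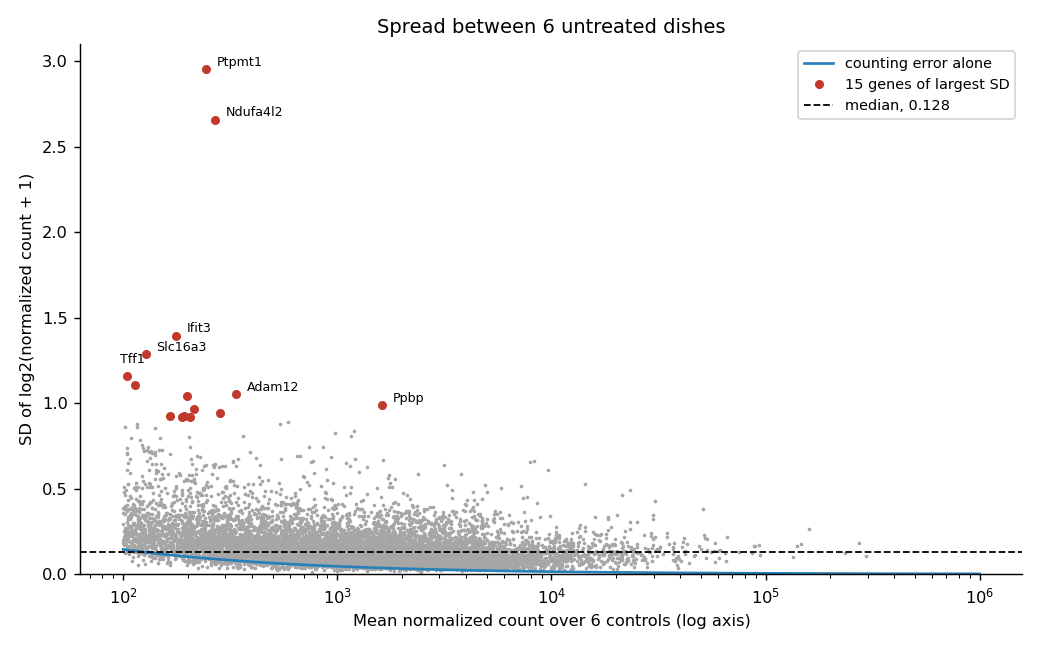
SD of log2(normalized count + 1) over the 6 control libraries against the mean normalized count (log axis), 1 point per gene, with the 15 genes of largest SD in red and counting error alone in blue. The dashed line marks the median of 0.128, and Ptpmt1 and Ndufa4l2 lie farthest above it.

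The 15 genes of largest spread held several that belong to known responses. The largest SD, 2.95, was that of Ptpmt1, a phosphatase of the mitochondrial inner membrane, with 8.61, 10.6, 9.60, 0.0296, 11.5 and 6.09 in controls 1, 3, 4, 5, 6 and 7. The annotation classes this entry as a processed transcript and not as protein coding. Ptpmt1 was near 0 in control 5, with 0.957 normalized counts, and at similar height elsewhere. All 6 ablation dishes lay between 4.86 and 14.6, the ablation dish of number 5 among them. Across all 12 libraries the genes with the most similar pattern were Polr3f, a subunit of RNA polymerase III, with Pearson's r = 0.873, Mfsd4b4 with 0.853 and Bbof1 with 0.821, out of 10711 genes. Ptpmt1 held 152 to 458 normalized counts in all libraries but control 5. On the log2 scale these r values thus rest mostly on control 5.

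Ndufa4l2, a mitochondrial protein known as a target of hypoxia-inducible factor, had the next largest SD, 2.66. Its levels were 20.9, 14.3, 11.3, 0.299, 41.2 and 86.5 in controls 1, 3, 4, 5, 6 and 7, lowest in control 5 and highest in controls 6 and 7. Slc16a3, a lactate exporter also induced by hypoxia, had 0.735, 0.942, 3.21, 1.07, 5.44 and 5.62. All 3 dishes of numbers 4, 6 and 7 were above all 3 of numbers 1, 3 and 5. The genes most like Ndufa4l2 over the 12 libraries were P4ha1, a collagen prolyl hydroxylase (r = 0.966), 2610528A11Rik (0.962) and the aldolase Aldoc (0.935); Ndufa4l2 was singled out for this after its values were seen. A list of 9 hypoxia targets, also chosen after the values were seen, summed to between 334 and 546, highest in control 7 and next in control 6. Egln3, an oxygen-sensing hydroxylase, had 57.4, 60.1, 85.8, 60.2, 80.3 and 117, and Bnip3, a mitophagy receptor, 24.1, 19.5, 34.4, 20.7, 37.8 and 43.0. Both were higher in dishes 4, 6 and 7 than in 1, 3 and 5. The share of all genes that separate these dishes in the same way was not counted.

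Interferon-inducible genes formed another set of variable genes. Ifit3, an interferon-induced protein with tetratricopeptide repeats, had 1.79, 10.0, 7.68, 13.2, 5.00 and 32.9 in controls 1, 3, 4, 5, 6 and 7, and its paralog Ifit3b 1.95, 4.83, 4.63, 8.61, 2.87 and 17.1. Control 7 was highest and control 1 lowest for both. Reads of these paralogs may be split between them, and their summed normalized counts had an SD of 1.26, near the 1.39 and 1.11 of each alone. Rtp4, an interferon-induced chaperone, was most like Ifit3 over the 12 libraries (r = 0.939), followed by Oasl2 (0.896) and the keratin Krt7 (0.894). A list of 16 interferon response genes, chosen after the values were seen, summed to between 132 in control 1 and 364 in control 7. Isg15, the ubiquitin-like modifier, had 20.2, 61.1, 48.6, 46.5, 36.4 and 67.5.

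The promoters of Slc16a3, Ifit3 and Ifit3b are printed since these genes were among the most variable of the hypoxia and the interferon genes, from 250 bases before to 50 bases after the start that RefSeq gives (GRCm38.p6, plus strand for all 3). The Slc16a3 window is chr11:120948817-120949116, with capitals for ACGTG, the core of the site that hypoxia-inducible factors bind, searched on both strands. The Ifit3 window is chr19:34583279-34583578 and that of Ifit3b chr19:34607707-34608006, with capitals for a pair of TTTC with 2 bases between them, the core of the interferon-stimulated response element, also searched on both strands (the bases between are in capitals too).
Slc16a3: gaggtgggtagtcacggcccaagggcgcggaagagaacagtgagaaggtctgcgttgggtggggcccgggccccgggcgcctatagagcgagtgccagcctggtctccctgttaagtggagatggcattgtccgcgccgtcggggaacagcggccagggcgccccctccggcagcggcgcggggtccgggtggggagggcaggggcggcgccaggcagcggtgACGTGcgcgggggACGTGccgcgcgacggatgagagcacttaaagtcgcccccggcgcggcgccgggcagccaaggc
Ifit3: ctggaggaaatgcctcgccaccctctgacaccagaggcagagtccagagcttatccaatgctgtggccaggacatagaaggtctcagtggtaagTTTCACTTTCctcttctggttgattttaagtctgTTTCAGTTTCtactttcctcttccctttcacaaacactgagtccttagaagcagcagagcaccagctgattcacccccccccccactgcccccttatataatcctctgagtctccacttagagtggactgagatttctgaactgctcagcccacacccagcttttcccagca
Ifit3b: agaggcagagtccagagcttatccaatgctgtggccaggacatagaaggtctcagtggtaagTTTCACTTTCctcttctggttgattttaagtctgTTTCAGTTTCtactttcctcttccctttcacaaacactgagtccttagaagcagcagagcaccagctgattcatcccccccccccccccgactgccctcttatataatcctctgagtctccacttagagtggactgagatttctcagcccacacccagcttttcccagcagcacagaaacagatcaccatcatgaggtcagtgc
Slc16a3 held 2 matches of ACGTG, which began 27 and 14 bases before the start, and 19.6% of 32851 promoter windows of the same length hold at least 1. Ifit3 held 2 matches of the TTTC pair, 156 and 122 bases before its start, and Ifit3b 2 at 188 and 154 bases, where 3.44% of the promoters hold any. The windows of Ifit3 and Ifit3b share an unbroken run of 169 identical bases. A match is given as a description of the letters and not as a bound site.

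Further genes of large spread were secreted or structural. Ppbp, a chemokine of the CXC family, had 54.7, 102, 189, 305, 98.2 and 293 in controls 1, 3, 4, 5, 6 and 7, and Tff1, a trefoil peptide of mucous epithelia, 3.65, 12.4, 30.9, 13.3, 9.69 and 34.3. Both were lowest in control 1. Adam12, a metalloprotease, had 1.22 and 1.21 in controls 1 and 3 and 3.97 to 6.45 in the others, and H2afy2, a macroH2A histone, was higher in controls 1 and 3, with 25.4 and 28.8, than elsewhere, with 6.26 to 12.8. Sprr2a1 and Sprr2a2, copies of a cornified envelope precursor, peaked in different dishes, with 20.2 for Sprr2a1 in control 1 and 16.0 for Sprr2a2 in control 5. The summed normalized counts of these copies had an SD of 0.68, and of 0.18 with Sprr2a3 added, which holds most of the reads. Near-identical copies may share reads, so the levels of the single copies are uncertain.

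The ablation dish of the same number shared passage and culture day with its control, and its libraries were not used to choose these genes. For the genes of the spread plot the correlation of the 6 control values with the 6 same-numbered ablation values had a median r of 0.616, and 90.6% of genes had an r above 0. For the 500 genes of largest spread the median was 0.741, and for the 500 of smallest spread 0.346. Of the former, 79.2% were also in the top 10% of spread among the ablation dishes. Ifi44 (r = 0.974) and Ppbp (r = 0.962) followed the dish number closely. Slc16a3 (r = -0.07) and Ptpmt1 (r = -0.30) did not, and the ablation dishes ranged over 0.318 to 34.4 for Ndufa4l2. These r values rest on 6 dish numbers each and are given without a test.

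**Figure D5:**
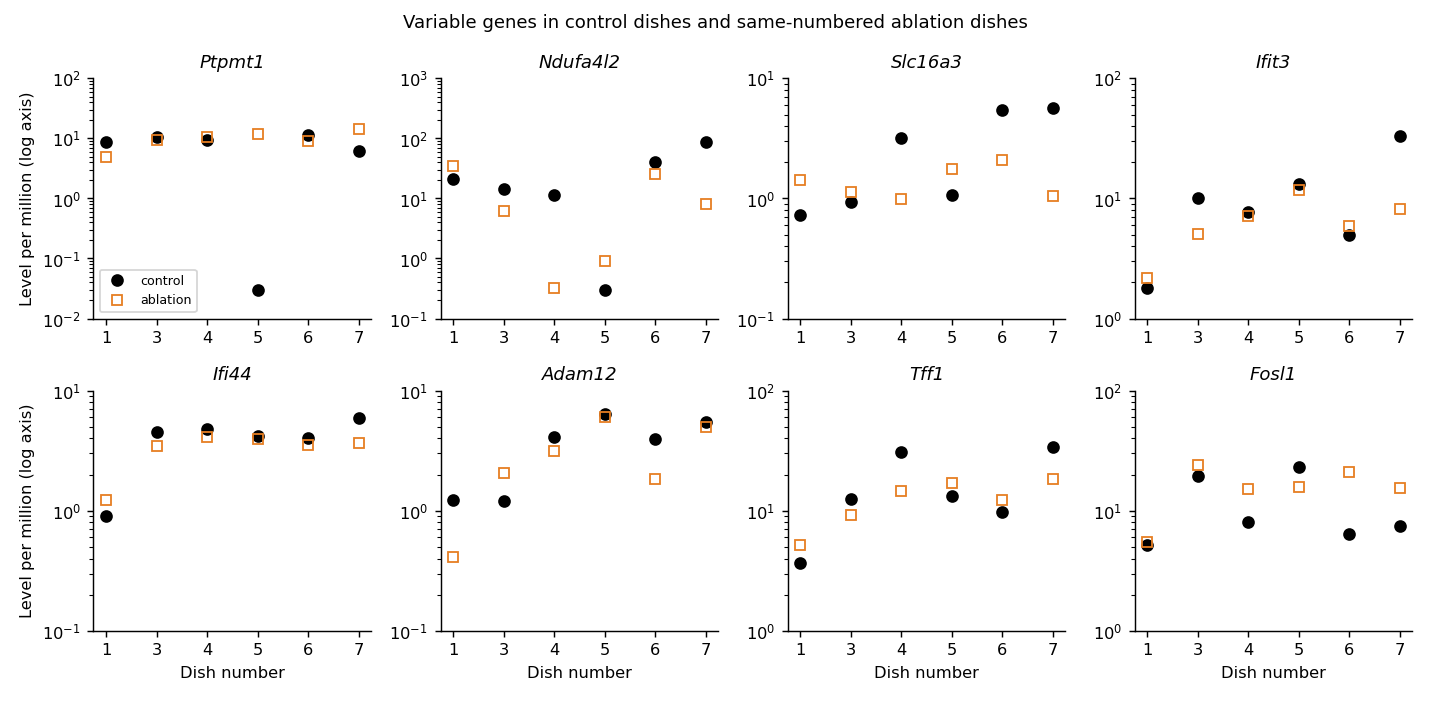
Level per length (log axis, its range set per gene) of 8 genes in the control dishes (filled) and the ablation dishes of the same number (open). Ptpmt1 is near 0 only in control 5, and Ifi44 takes similar values in both dishes of a number.

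Whether dishes differed by library set or by culture day was tested within the 6 controls. The sets are the 2 runs of library numbers, with controls 1, 3 and 5 in the first and 4, 6 and 7 in the second, and later passages lie mostly in the second. Passage 15 after the second occurs in both sets (controls 4 and 5), passage 14 in the first set alone and passage 16 in the second alone, and set and passage were not fitted together. Culture day was taken as 14 or 15 (controls 1, 4 and 5) against 18 to 20 (controls 3, 6 and 7). In a limma model with both terms, 0 of 13871 genes (0%) differed between the sets at an adjusted p-value under 0.05, and 2098 (15.1%) had an unadjusted p-value under 0.05, 1013 of them higher in the second set. The lowest adjusted p-value from limma was 0.229. It was shared by Neat1, a nuclear long noncoding RNA with 53.8, 63.8 and 49.6 in the first set and 78.3, 119 and 121 in the second (log2 difference 0.70, SE 0.081), by Slc16a3 (2.13, SE 0.23) and by Cybb, a subunit of the NADPH oxidase (0.91, SE 0.10). Without control 5, 9 genes passed, all higher in the second set, among them Slc16a3, Adam12, Sox9, a factor of distal lung and gland progenitors, and the mucin Muc4. Fits with edgeR and DESeq2 on the whole reads of 5 controls lack control 4 and were not used here. Without control 4 the second set holds late dishes only, and the set term compares controls 6 and 7 with control 3 alone. With passage as a number in place of the set, limma called 348 genes.

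Members of the lists are given beside that background of 15.1% for the set. All lists were chosen with earlier results of these data known, so no count below is a test against it. Of 15 S phase genes 7 had an unadjusted p-value under 0.05, all lower in the second set, with a median log2 difference of -0.28 over the list and 0.0025 over all genes. They were Mcm2, Mcm3, Mcm4, Mcm5, Mcm6, Gins2 and Cdc6, which load or form the replicative helicase. None passed the adjusted threshold, and control 3, highest in S phase genes, lies in the first set. Of the 9 hypoxia targets chosen afterwards, 6 had an unadjusted p-value under 0.05, all higher in the second set, with a median of 0.78. This count cannot be read against the background either, and here the levels of these dishes were seen before the choice of that list. The glycolysis and hypoxia list, which was set with the design and overlaps it, had 6 of 13 genes at that limit, with Egln3, Bnip3 and Slc16a3 higher and the glycolytic Pkm, Gapdh and Hk2 lower in the second set, and a median of -0.09. Of 16 basal genes 3 did so, a share near the background, with a list median of -0.08: Krt5 (log2 difference -0.28, SE 0.10), Krt17 (-0.31, SE 0.073) and Trp63 (-0.30, SE 0.080). Their adjusted p-values from limma were 0.309 for Krt5 and 0.283 for Krt17 and Trp63. Without control 6 or 7 the number of genes at an unadjusted p-value under 0.05 fell from 2098 to 1057 or 1289. Without control 3 the set term compares control 4 alone with controls 1 and 5, so no count is given.

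For culture day 1 of 13871 genes (0.00721%) passed, the histone gene Hist1h2ap, with 0, 51.2, 0, 0.452, 23.3 and 29.3 in controls 1, 3, 4, 5, 6 and 7. It was present in the 3 late control dishes and at or near 0 in the 3 early ones (fitted log2 difference 6.86, SE 0.46, adjusted p = 0.0176 from limma, which depends on the pseudocount and is no bound). The ablation dishes did not repeat this pattern. Their levels were 4.28, 0, 34.5, 0.462, 0.247 and 0.712 for numbers 1, 3, 4, 5, 6 and 7 (r = -0.788 with the controls). Histone genes of this cluster have near-identical copies that can share reads, and the gene passed the minimum of 10 normalized counts through its 3 late dishes alone. The call was lost with a pseudocount of 0.5, with plain moderation, and without control 3, 4, 6 or 7. Fits with edgeR and DESeq2 on 5 controls were not used here either. Without control 4 the day term compares control 3 alone with controls 1 and 5. At an unadjusted p-value under 0.05 stood 978 genes (7.05%), 423 of them higher in the late dishes. Of the 13 hillock and squamous genes tested 3 were among them, all lower in the late dishes: Sprr3 (log2 difference -0.61, SE 0.16), Sprr1a (-0.31, SE 0.089) and Cnfn (-1.17, SE 0.41), with a list median of -0.31 against 0.0013 over all genes. Sprr3 had 78.8, 60.8 and 56.6 in the early dishes 1, 4 and 5 and 43.7, 35.9 and 44.9 in the late dishes 3, 6 and 7. Cyp2f2 was 0.59 lower in the late dishes on the log2 scale (SE 0.17), with its lowest value in control 3. All 4 genes had an adjusted p-value of 0.687 from limma. Without control 6, 638 genes stood at an unadjusted p-value under 0.05. Without control 3 the day term compares controls 6 and 7 with control 4 alone, so no count is given.

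The same model was fitted to the 6 ablation libraries, which come from the same passages and days. It called 0 of 13859 genes for the set and 0 for the day, with 732 and 712 at an unadjusted p-value under 0.05. Of the genes at an unadjusted p-value under 0.05 for the set in the controls and tested in both, 1896 of 2078 (91.2%) had the same sign in the ablation libraries, against 71.0% of all genes. For the day these were 849 of 962 (88.3%), against 67.4%. Etv5, an ETS factor downstream of fibroblast growth factor signalling, had a log2 difference of 0.92 (SE 0.17) between late and early controls, where it peaked at 42.9 in control 3, and of 1.09 (SE 0.10, adjusted p = 0.0892 from limma) in the ablation libraries. Igfbp5, a binding protein of insulin-like growth factors, had -1.40 (SE 0.24) and -1.28 (SE 0.17), and in the controls the adjusted p-value of both was 0.687 from limma. Etv5 and Igfbp5 were singled out after their values were seen.

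Against the ablation libraries, 0 of 13792 genes (0%) passed in the limma model with library set, with 1083 at an unadjusted p-value under 0.05. With the replicate block 150 genes (1.09%) passed, among them 6 members of the lists described here, Trp63, Sox2, the retinal dehydrogenase Aldh1a1, Clca1, Jun and Ier3. No other list member that was tested passed in either model.

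Xist, the RNA of the inactive X chromosome, was measured at 113, 120, 149, 93.9, 252 and 189 in controls 1, 3, 4, 5, 6 and 7, while Ddx3y, Uty, Kdm5d and Eif2s3y of the Y chromosome had no read in any of them, which allows at most 0.0873 for Eif2s3y, the shortest. Xist was highest in control 6 and lowest in control 5. The ablation dishes had no read of these Y genes either, although the methods name mice of both sexes.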

How the data were processed

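Poly(A) RNA of 12 organoid dishes was sequenced as stranded libraries in paired-end reads of 75 bases, and RNA of all samples was isolated together. The authors ran the nf-core RNA-seq pipeline with the GENCODE mouse annotation (GRCm38.p6) and DESeq2 in Galaxy with a batch as second factor. Strandedness of the counting is not given in the sources used here. The deposited signal values used are gene counts that the authors had divided by 1 DESeq2 size factor for each library. Whole reads were recovered for 5 of 6 controls (values within 0.02 of a whole multiple). Values of control 4 were whole multiples too, but its step of 1.01 was too near 1 for the rule on recovered reads, so count models left it out. The authors' own comparison columns (log2 fold changes, standard errors, Wald statistics and p-values) were not used.

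Levels are normalized counts divided by the deposited length and scaled to 1000000 per library. All 54349 gene identifiers found in the GENCODE M21 annotation had the same length there, of 55401 listed. Tests used limma 3.58.1 in R 4.3.3 on log2(normalized count + 1), with trended, robust moderation and Benjamini-Hochberg adjustment at 0.05, over genes at 10 or more normalized counts in 3 or more of the 6 libraries (6 or more of 12 for ablation against control). edgeR 4.0.16 and DESeq2 1.42.0 were alternatives on recovered reads. The limma fits for set and day in the controls, and for ablation with library set, were also run on simulated counts. The replicate block, the fits in the ablation libraries, edgeR and DESeq2 were not. In a check of pairing, deviations of same-numbered control and ablation libraries from their group means correlated across 13792 genes with r = 0.618, 0.493, 0.205, 0.317, 0.381 and 0.332 for numbers 1, 3, 4, 5, 6 and 7, which share passage and day in their titles.

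The members and the lists were chosen with earlier results of these data known. Of 30 gene lists 28 were set with the design, and the interferon and hypoxia lists were added after the values were seen. Genes named are the 25 of highest level, members of lists, the 15 of largest and the 10 of smallest spread, and those past a threshold. Others are said to be singled out. The upper level that 0 reads allow is that of 3 counts per library and covers counting error only.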

Additional observations from a re-analysis of the deposited data

Results flagged for a closer look

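Of 81 values tested over the 6 control dishes, 9 had a highest or lowest dish that stood apart, with a gap to its neighbour, as a part of the whole range, above Dixon's critical value for 6 samples. Chance gives about 1 in 20 for values not chosen by their spread, but the 81 include genes chosen for a large or small spread over the same dishes and a sum at 0 in 5 dishes, so the 9 cannot be read against that rate. Ifit3, Sprr2a1 and Sprr2a2 are among the 15 genes chosen for the largest spread. Ifit3 stood at a level of 32.9 in control 7 and at 13.2 or less in the others. Sprr2a1 stood at 20.2 in control 1 against at most 6.45, and Sprr2a2 at 16.0 in control 5 against at most 6.90. Of the summed list levels, the goblet cell sum was 52.7 in control 1 (at most 34.5 elsewhere), the alveolar type II sum 62.0 in control 3 (at most 49.0), and the ErbB sum 612 in control 5 (at most 434). The Wnt sum was 126 in control 3, below all others (171 or more). The fibroblast sum was 0.786 in control 1 (at most 0.449), and the erythroid sum 0.0454 in control 5 and 0 elsewhere, where any single read would stand apart, both near the limit of detection.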

How the results depend on the processing

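Of 115 alternatives, 92 stayed within 1.5 times of the reported count or within the spread of the reported value. The 115 include the fits left out below. A mean level cannot move by its SD when a dish is left out, and the reference exon lengths equal the deposited ones. Such alternatives could hardly come out otherwise, so the 92 are no measure of stability. The number of genes called for culture day (1) was 0 with a pseudocount of 0.5, 0 with plain eBayes moderation and 0 with edgeR on 5 libraries, 7 with all genes with any count, and 69 with DESeq2 on 5 libraries. Leaving out a control gave 0 to 1, where the call without control 7 was Smt3h2-ps in place of Hist1h2ap. The number called for library set (0) was 61 with all genes with any count, 348 with passage as a number and 253 with DESeq2, and 0 to 9 leaving out a control. For ablation against control (0), the replicate block gave 150 and all genes with any count gave 3. Leaving out a dish number, control and ablation dish together, gave 0 in each case in the model with library set. The replicate block was not refitted in this way. Without division by length, levels were 8426 for Krt14, 9815 for Krt5, 893 for Krt8, 141 for Sox2 and 268 for Trp63. Leaving out a control, they were 15368 to 15945, 14145 to 14966, 1431 to 1520, 219 to 231 and 101 to 107, and 12397 to 12474 genes reached a level of 1 in all remaining dishes. The median spread of 0.128 was 0.140 at a mean of at least 30, 0.107 at a mean of at least 1000, 0.108 to 0.134 leaving out a control (lowest without control 3), and 0.140 among the 6 ablation libraries, a comparison added after the values were seen. The cause of these changes was not tested. Depth limits the list genes without any read, for which 3 counts per library would be levels of 0.0239 (Kdm5d) to 0.544 (Tyrobp).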
